A study of Mus musculus with 24 samples.

Results

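Heme synthesis was followed in supporting cells of the mouse fetal gonad through 9 genes, which are Alas1, Alas2, Alad, Uros, Urod, Cpox, Ppox, Fech and Hmox1. All 9 were found by symbol among the 32040 genes of the deposited tables. The genes were listed by name, and Alas2 was selected on its measured level, which is high in late XY cells. Its values in XY from E12.5 on are therefore described without a test, and counts of members below are over the other 8 genes. Bulk RNA of sorted cells had been sequenced in 24 libraries, 3 in each of 8 groups. Pre-granulosa cells of XX gonads carried the Tg(Enh8-mCherry) transgene, and Sertoli cells of XY gonads came from the SOX9-IRES-GFP line. Both were collected at 4 embryonic stages, daily from E11.5 to E13.5 and again at E15.5, and the labels name no treatment. Sex, mouse line and fluorescent reporter change together in every XX minus XY difference and cannot be told apart.

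Heme is an iron-holding ring that cells place in hemoglobin, cytochromes and the P450 enzymes of steroid and retinoid metabolism. Synthesis starts in the mitochondrion, where an aminolevulinate synthase joins glycine and succinyl-CoA, and this step sets the rate of the pathway. Alas1 encodes the synthase used by cells in general, and Alas2 encodes the synthase known from red blood cell precursors. Alad, Uros and Urod act in the cytosol, Cpox, Ppox and Fech finish the ring and insert iron in the mitochondrion, and Hmox1 opens the ring again when heme is broken down.

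Total estimated counts per library ranged from 11275251 to 37256881, and a count of 3, taken as the floor of detection, stood for 0.0774 to 0.26 CPM (counts scaled by the TMM-adjusted library total). Such floors cover counting error only. The labelled cell types were checked on 1 marker each, with sums of marker lists beside them. Amh, a Sertoli hormone, was at 3826 CPM or more in each XY library from E12.5 on and at 7.86 CPM or less in each XX library. Fst, a pre-granulosa gene, was at 108.7 CPM or more in each XX library and at 6.03 CPM or less in each XY library. The sum of 7 pre-granulosa markers was 476 to 1069 CPM in XX E11.5 and 1040 to 1471 CPM in later XX libraries. In XY it was 109 to 153 CPM at E11.5, with 3 of the 7 at 10 CPM or more on average, and 6.25 to 28.2 CPM later. The sum of 8 Sertoli markers averaged 2252.5 CPM in XY E11.5 and 8949 to 10463 CPM in later XY groups. In XX it averaged 177 CPM at E11.5 and 622 CPM at E15.5. In XY E15.5, 6 of these 8 markers were at 10 CPM or more on average. Interstitial markers summed to 444 to 579 CPM in XY E11.5 and to 87.9 to 130 CPM in later XY libraries. XX E13.5 replicate 1 has E12.5 in its stage field, and its title and description, which were followed, have E13.5. The 3 XX E11.5 libraries stood apart by RNA of red blood cells. The summed level of 16 erythroid marker genes was 4446 to 34715 CPM there, 340 to 1827 CPM in later XX libraries and 12.53 to 226 CPM in XY libraries. The labels do not say that the libraries of a group came from separate animals, so p-values rest on the spread between libraries. For each gene that spread is 1 estimate shared by all 8 groups, so an SE is not the spread of the groups compared. The wide XX E11.5 libraries enter every SE. For Fech, XX minus XY at E15.5, the SE was 0.26 with them and 0.07 without them. In bulk RNA, fewer cells of a type and less RNA per cell cannot be told apart.

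Between XX and XY at E11.5, 4 of the 8 genes tested passed (edgeR, adjusted p under 0.05), beside 42.0% of all 16190 genes tested. Of these, 3 lay on the XX side (21.4% of all genes) and 1 on the XY side (20.6%). At E12.5, 5 of the 8 passed beside 62.1% of all genes, 3 of them higher in XX (30.5%) and 2 on the XY side (31.5%). At E13.5 it was again 5, beside 66.1%, with 3 higher in XX (32.8%) and 2 in XY (33.3%). At E15.5 it was 5, beside 69.4%, with 4 higher in XX (34.9%) and 1 in XY (34.4%). Heme genes thus passed about as often as genes in general. The median log2 difference of the 8 genes was 0.13, 0.02, 0.24 and 0.33 from E11.5 to E15.5, and that of all genes was 0.02, -0.01, 0.01 and 0.05. Members differed in both directions at every stage. Alas1, Alad, Urod, Cpox and Fech passed only on the XX side, Uros and Hmox1 passed only on the XY side, and Ppox passed at a single stage.

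Promoter sequence is shown for Alas2 and Cpox, the pair with the steepest fall in early XX cells. Bases upstream of the RefSeq transcript start were taken from RefSeq on build GRCm38.p6, and 7 of the 9 members had an entry. Both are printed on the plus strand, 5′ to 3′, at chrX:150547167-150547374 and chr16:58669958-58670207. Capitals mark matches, on either strand, to 5 short motifs, none of which contains another. Factors of the GATA family are known for binding AGATAA and, in other genes, the related motif TGATAA. NR5A1, the steroidogenic factor, is known for AAGGTCA. SOX factors were searched by the motif AACAAT, and KLF factors by CACCC.
Alas2: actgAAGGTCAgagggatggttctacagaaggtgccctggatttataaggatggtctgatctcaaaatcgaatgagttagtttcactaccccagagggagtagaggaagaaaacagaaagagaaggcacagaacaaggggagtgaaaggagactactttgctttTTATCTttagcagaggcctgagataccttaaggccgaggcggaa
Cpox: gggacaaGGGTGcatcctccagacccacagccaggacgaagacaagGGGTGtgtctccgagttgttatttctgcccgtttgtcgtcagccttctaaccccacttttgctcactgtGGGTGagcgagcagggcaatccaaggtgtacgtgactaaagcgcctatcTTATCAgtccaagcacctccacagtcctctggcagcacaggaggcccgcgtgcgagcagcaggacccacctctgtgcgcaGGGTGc
The Alas2 stretch stops 42 bases before the RefSeq start because the GENCODE gene begins there. It holds AGATAA on the minus strand, at position -86 from the start, and AAGGTCA at -246. Alas2 has CACCC at 3 further places in the bases not printed. The Cpox promoter holds TGATAA on the minus strand, also at -86, and CACCC at 4 places. Neither GATA motif was found in the upstream bases of Alas1, Alad, Urod or Ppox, and Uros has TGATAA in 1 of 2 entries. Among 32851 promoters of the same 250 bases, 16.6% hold at least 1 of the GATA motifs, 4.08% hold AAGGTCA, 9.42% hold AACAAT and 52.0% hold CACCC. These are matches of letters, and binding was not measured here.

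Alas2 lies at chrX:150547375-150570638 on the plus strand of GRCm38 in GENCODE M21. In XY it was at 2.72, 1.86 and 1.15 CPM at E11.5 and at 12.3, 7.85 and 10.5 CPM at E12.5. It was at 31.2, 29.8 and 28.6 CPM at E13.5 and at 37.4, 33.9 and 35.7 CPM at E15.5. Each XY group lay above the group before it with no overlap, and most of the rise was reached by E13.5. In XX it was highest at E11.5. Alas2 was at 43.0, 11.4 and 110.3 CPM in XX E11.5, at 4.58, 4.82 and 1.45 CPM in XX E12.5, at 1.41, 1.45 and 1.21 CPM in XX E13.5 and at 1.56, 1.67 and 2.54 CPM in XX E15.5. The 3 XX E11.5 libraries differ from each other by more than any later group does, and every later XX library lies below every XY library of its stage.

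The log2 difference of Alas2, XX minus XY, was 4.84 in the earliest stage, with an SE of 0.58 and an adjusted p of 1.31e-06 in edgeR. As a description only, the later stages had -1.49 (E12.5), -4.44 (E13.5) and -4.16 (E15.5). In XX, Alas2 fell from E11.5 to E12.5 by a log2 change of -3.91 (SE 0.55, adjusted p 4.21e-05 in edgeR). XX E11.5 was also represented by replicate 2 alone, the library with the least erythroid RNA, chosen after values were seen. That lone library has no spread of its own and is assumed to vary like the other groups. The fall was then -1.64 (adjusted p 0.00598 in edgeR) and the E11.5 difference from XY was 2.56 (adjusted p 2.38e-05 in edgeR). The step from E12.5 to E13.5 in XX was -1.40 (SE 0.64) and did not pass (adjusted p 0.105 in edgeR). Without the 3 XX E11.5 libraries in the fit it was -1.43 and passed (adjusted p 0.0051 in edgeR).

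On the TPM scale, which allows for gene length and so lets genes be compared, Alas2 was at 28.6 ± 1.503 TPM in XY E15.5 (SD, n = 3) and at 23.3 ± 0.96 TPM in XY E13.5. XX E11.5 held 45.5 ± 41.4 TPM, and its range of 8.29 to 90.1 TPM overlaps that of XY E15.5, the next group in order. XY E15.5, XY E13.5, XY E12.5 and the groups under them do not overlap each other. XX E12.5, XY E11.5, XX E15.5 and XX E13.5 form the low end, between 1.03 and 4.19 TPM, and each overlaps its neighbour in that order.

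**Figure D1:**
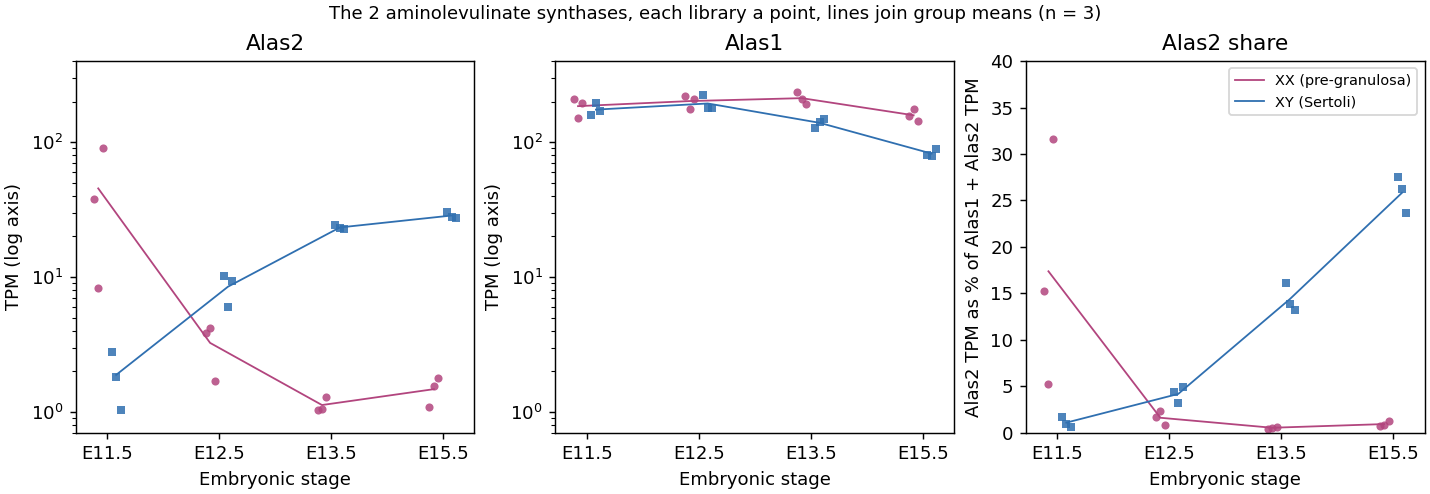
Alas2 and Alas1 in TPM (log axis) and the Alas2 share of their sum (percent, linear axis) by embryonic stage, with each library a point and lines joining the means of 3 libraries. Alas2 climbs from 1.88 to 28.6 TPM in XY while Alas1 comes down from 193.9 TPM at E12.5 to 82.4 TPM at E15.5.

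RNA of red blood cells was abundant where XX cells held Alas2 and scarce where XY cells did. In the 3 XX E11.5 libraries the summed erythroid markers were at 13765, 4446 and 34715 CPM in the order of the replicates, which is also the order of Alas2, and 15 of the 16 markers in the table were at 10 CPM or more on average. For each CPM of Alas2 there were 315 to 391 CPM of these markers in XX E11.5. In XY E12.5 and XY E13.5 there were 0.535 to 3.13 CPM of them for each CPM of Alas2, and no erythroid marker reached a group mean of 10 CPM. The same ratio was 4.61 to 27.9 in XY E11.5, 3.75 to 6.32 in XY E15.5 and 177 to 675 in later XX libraries. Rhag, a red cell membrane gene, had no count in XY E13.5, and its limit there is 0.166 CPM. XY E15.5 held more, at 140 to 226 CPM in sum with 3 markers at 10 CPM or more, which are the adult globins Hba-a1, Hba-a2 and Hbb-bt, and Hbb-bh1 without a count (up to 0.19 CPM). From XY E13.5 to XY E15.5 the mean of the summed markers went from 26.7 to 179 CPM, and Alas2 went from 29.9 to 35.7 CPM. Immune markers were at 215 to 607 CPM in XX E11.5, 57.1 to 87.3 CPM in later XX libraries and 3.82 to 11.01 CPM in XY. How far RNA of other cells made up Alas2 was not tested.

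**Figure D2:**
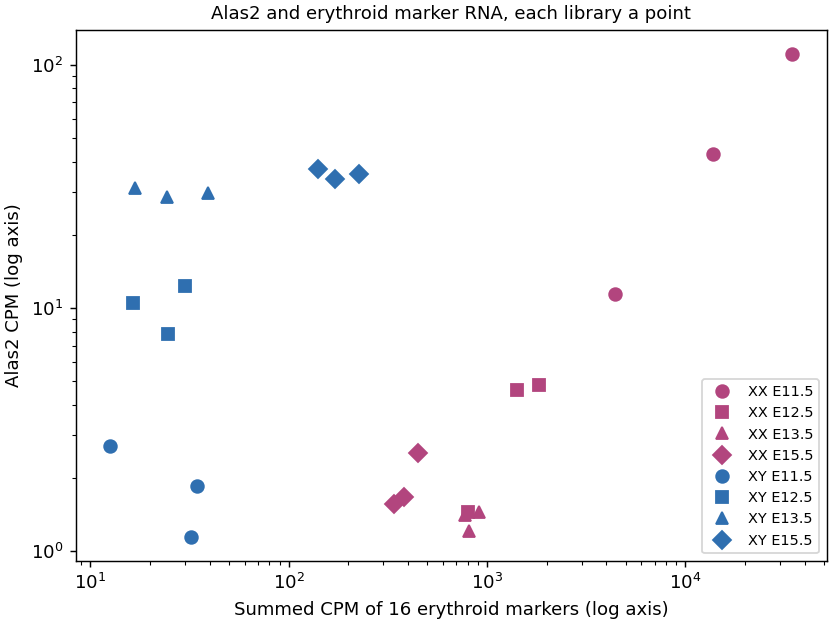
Alas2 (CPM, log axis) against the summed CPM of 16 erythroid markers (log axis), each point a library, with colour for sex and shape for stage. XX E11.5 libraries lie at the right, at 4446 CPM of markers or more, with Alas2 from 11.4 to 110.3 CPM. XY E13.5 libraries reach 28.6 to 31.2 CPM of Alas2 at 39.0 CPM of markers or less.

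Alas2 lies within the span of Apex2, a DNA repair gene on the minus strand, and 311 of its 2403 exon bases (12.9%) are also exon of Apex2. Whether strand was used in counting is not given in the sources used here, so reads in that stretch cannot be assigned for certain. The XY mean of Apex2 was 17.1 ± 1.98 CPM at the earliest stage and 18.6 ± 1.31 CPM at the latest (SD, n = 3), an interval over which the XY mean of Alas2 went from 1.91 to 35.7 CPM.

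Alas1 (chr9:106233455-106248654, minus strand) took the other course in XY from E12.5 on. It was at 127, 146 and 127 CPM at E11.5 and at 184, 165 and 162 CPM at E12.5. It was then at 107, 125 and 123 CPM at E13.5 and at 63.8, 67.5 and 73.0 CPM at E15.5. The last 3 groups do not overlap. The fall was -0.52 on the log2 scale from E12.5 to E13.5 (SE 0.10, adjusted p 0.000922 in edgeR) and -0.80 from E13.5 to E15.5 (SE 0.10, adjusted p 7.00e-06 in edgeR). The rise before it, 0.35 (SE 0.10, adjusted p 0.00486 in edgeR), did not pass when XY E11.5 replicate 1 (0.0800) or replicate 3 (0.0776) was left out, when XY E12.5 replicate 1 was (0.0876), nor in limma on log2(TPM + 1) (0.36).

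In XX, Alas1 stayed within a narrower band, with group means of 150.2, 149.2, 182.1 and 136.6 CPM from E11.5 to E15.5. It rose from E12.5 to E13.5 by 0.29 (SE 0.10, adjusted p 0.0293 in edgeR) and fell by 0.42 from E13.5 to E15.5 (SE 0.10, adjusted p 0.00395 in edgeR). The rise did not pass without XX E12.5 replicate 2 (0.0954) or XX E13.5 replicate 1 (0.125), the library with the unclear stage, nor in limma on log2(TPM + 1) (0.714). Alas1 was higher in XX by 0.62 at E13.5 (SE 0.10, adjusted p 1.25e-05 in edgeR) and by 1.004 at E15.5 (SE 0.10, adjusted p 1.36e-08 in edgeR), with no overlap of libraries at either stage. The change of this difference over the 4 stages passed (adjusted p 1.45e-06 in edgeR).

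The share of Alas2 in synthase RNA lay higher in each XY group than in the group before it, with no overlap. Alas2 made up 1.09 ± 0.58% of the summed TPM of both synthases in XY E11.5 (SD, n = 3). The share then went to 4.18 ± 0.86%, 14.4 ± 1.51% and 25.8 ± 1.97% over the later XY stages. The sum itself was 176 ± 19.4, 202 ± 26.0, 163 ± 9.97 and 111 ± 5.10 TPM over the same 4 stages. Synthase RNA in total was thus lowest where the Alas2 share was highest among XY groups. In XX the share was 17.4 ± 13.3% at E11.5, with 15.3%, 5.23% and 31.6% in the 3 libraries, and 1.61 ± 0.75%, 0.534 ± 0.12% and 0.930 ± 0.27% over the later stages. Alas1 was the more abundant synthase in every library.

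Alad (chr4:62509169-62519918, minus strand) makes the first ring of the pathway, porphobilinogen. It had the highest mean TPM of the 9 genes in 7 of the 8 groups, the exception being XY E12.5, where Alas1 was higher. In XY E11.5 the means were close, at 176.0 TPM for Alad and 174.6 TPM for Alas1, and Alas1 was higher in replicates 1 and 2. In XX Alad was at 192, 327 and 323 CPM at E11.5 and at 266, 269 and 205 CPM at E12.5. It was at 408, 405 and 398 CPM at E13.5 and at 409, 328 and 356 CPM at E15.5. XY libraries were at 106, 119 and 143 CPM at E11.5, at 113, 119.7 and 122 CPM at E12.5, at 179, 192 and 178 CPM at E13.5 and at 304, 297 and 334 CPM at E15.5. XX lay above XY without overlap at the first 3 stages, and the ranges met at E15.5. The log2 difference was 1.19 at E11.5 (SE 0.15, adjusted p 2.78e-06), 1.06 at E12.5 (SE 0.15, adjusted p 4.28e-06) and 1.14 at E13.5 (SE 0.15, adjusted p 1.34e-06), all in edgeR, and did not pass at E15.5. Both sexes rose from E12.5 to E13.5, and XY cells rose again after that. Alad rose in XY by 0.63 from E12.5 to E13.5 (SE 0.15, adjusted p 0.00683 in edgeR) and by 0.77 from E13.5 to E15.5 (SE 0.15, adjusted p 0.000917 in edgeR), and in XX by 0.71 from E12.5 to E13.5 (SE 0.15, adjusted p 0.00125 in edgeR).

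**Figure D3:**
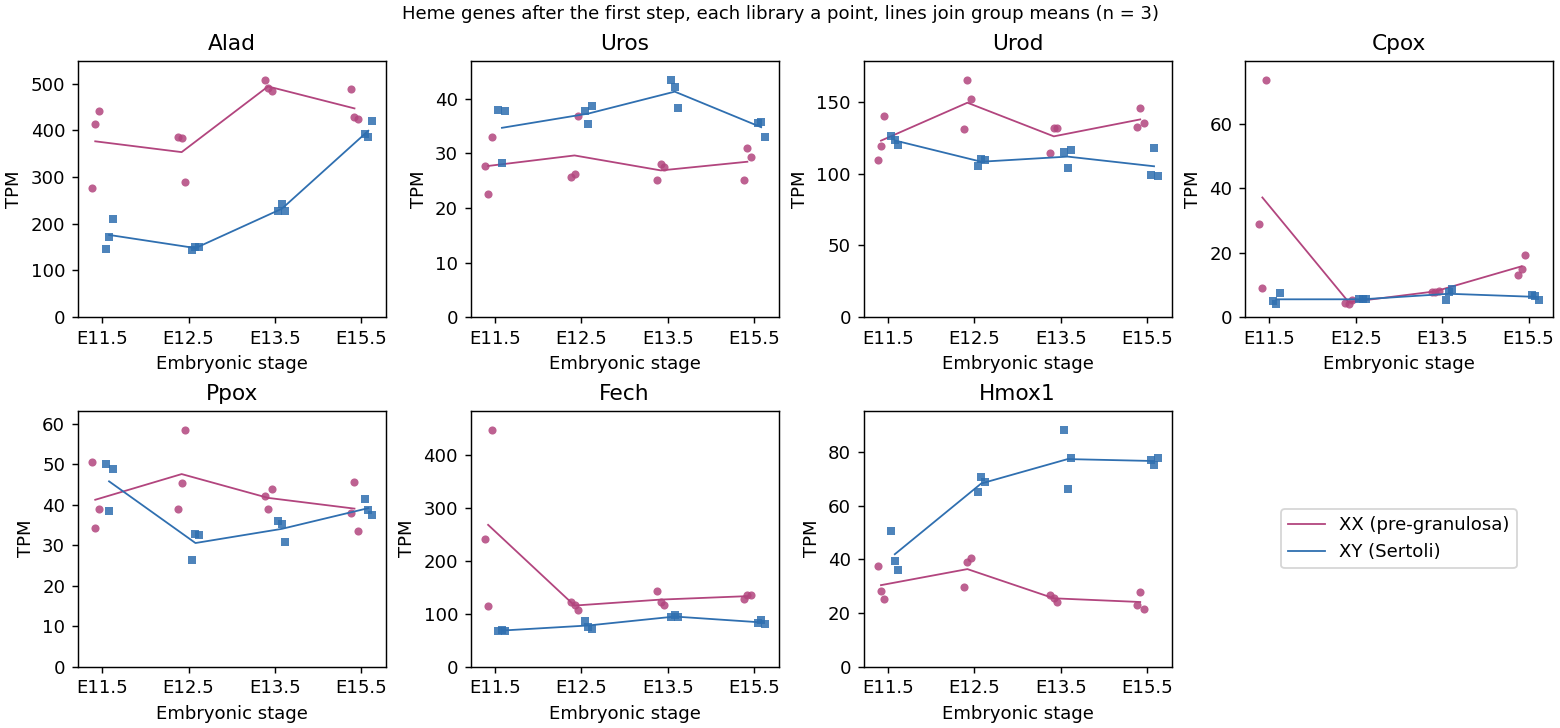
The 7 genes after the synthase step in TPM (linear axes from 0) by embryonic stage, with each library a point and lines joining the means of 3 libraries. Alad libraries of both sexes overlap at E15.5, Hmox1 separates the sexes from E12.5 on, and XX E11.5 libraries spread widely for Cpox and Fech.

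Uros and Urod, which close and trim the ring, differed little. Uros (chr7:133686243-133710072, minus strand) was at 24.8, 26.1 and 37.0 CPM in XX E12.5 against 40.02, 38.9 and 42.2 CPM in XY E12.5. At E13.5 it was at 28.1, 30.8 and 30.3 CPM in XX against 47.1, 47.3 and 41.2 CPM in XY. XY lay above XX without overlap at both stages. The log2 difference was -0.60 at E13.5 (SE 0.14, adjusted p 0.000638 in edgeR) and -0.46 at E12.5 (SE 0.14, adjusted p 0.00603 in edgeR). The E12.5 call was lost without XX E12.5 replicate 1 (0.112), XX E12.5 replicate 2 (0.0886) or XY E12.5 replicate 3 (0.0615).

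Urod (chr4:116989965-116994413, minus strand) had group means of 89.7 to 105.8 CPM in XX and of 78.3 to 88.6 CPM in XY. It was higher in XX by 0.43 at E15.5 (SE 0.10, adjusted p 0.000482 in edgeR), with 109, 107 and 102 CPM in XX against 79.2, 75.9 and 79.9 CPM in XY and no overlap. The differences of 0.23 at E12.5 (adjusted p 0.0413 in edgeR) and 0.24 at E13.5 (adjusted p 0.0319 in edgeR) were smaller. The E12.5 call ended with the replicate number as a block (0.0501), and the E13.5 call ended without XX E13.5 replicate 1 (0.0722) or XY E13.5 replicate 3 (0.0922). In edgeR with all 24 libraries no step between stages passed for Uros or Urod in either sex. The last XY step of Urod passed with only the libraries compared (-0.17, adjusted p 0.0284 in edgeR). It also passed without the 3 XX E11.5 libraries, a fit chosen after seeing the data (-0.18, adjusted p 0.0317 in edgeR, beside 29.5% of all genes).

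Cpox (chr16:58670292-58717636, plus strand) opens the mitochondrial end of the pathway. In XX it was at 52.8, 19.0 and 142 CPM at E11.5, at 8.28, 7.32 and 9.76 CPM at E12.5, at 16.7, 16.6 and 17.9 CPM at E13.5 and at 28.7, 29.9 and 43.0 CPM at E15.5. In XY it was at 8.91, 7.02 and 13.2 CPM at E11.5 and at 14.3, 13.3 and 11.1 CPM at E15.5, with group means of 11.03 and 14.6 CPM at the stages between. The 3 XX E11.5 values have the order of the erythroid markers, and the 3 later XX groups climb without overlap. The E11.5 difference was 2.87 (SE 0.44, adjusted p 2.76e-05 in edgeR), or 1.87 without XX E11.5 replicate 3 and 0.95 with XX E11.5 represented by replicate 2 alone. The fall from E11.5 to E12.5 in XX was -3.07 (SE 0.45, adjusted p 5.54e-05 in edgeR), or -2.08 without XX E11.5 replicate 3 and -1.16 with replicate 2 alone. The values from replicate 2 alone have no spread within XX E11.5 behind them.

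Cpox was again higher in XX at E15.5, by 1.39 (SE 0.43, adjusted p 0.00683 in edgeR). In edgeR with all 24 libraries and no block, neither step of the climb in later XX cells passed. The step from E12.5 to E13.5 passed with the replicate number as a block (1.04, adjusted p 0.0476 in edgeR) and in DESeq2 (1.03, adjusted p 0.0404). With only the libraries compared, Cpox passed from E12.5 to E13.5 (1.03, adjusted p 0.000231 in edgeR) and from E13.5 to E15.5 (0.996, adjusted p 0.000493 in edgeR). A fit without the 3 XX E11.5 libraries was chosen after seeing the data. In it Cpox rose by 0.98 at the first of these steps (adjusted p 0.000932 in edgeR, beside 40.7% of all genes). At the second it rose by 0.96 (adjusted p 0.00113 in edgeR, beside 35.2%). Over the second of these steps the summed erythroid markers of XX libraries went from between 774 and 914 CPM to between 340 and 450 CPM. Of the 16 markers 2 rose and 2 fell at that step (median log2 change 1.57), and of 8 transcription factors of red cell precursors 4 rose and 0 fell (median 1.27), beside 12.8% of all genes in each direction. At E13.5 the XX mean of 9 markers reached 1 CPM, and at E15.5 that of 13 did. How far erythroid RNA made up Cpox was not tested. Exons of Cpox and Gpr15 share 204 bases on opposite strands, and Gpr15 was at 0.233 CPM or less in every library.

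Fech, the ferrochelatase that inserts the iron, showed the same XX E11.5 spread. It was at 284, 149.7 and 559 CPM in XX E11.5, at 149, 129 and 130.02 CPM in XX E12.5, at 181, 168 and 166 CPM in XX E13.5 and at 178, 178 and 194 CPM in XX E15.5. XY libraries were at 87.6, 83.0 and 79.2 CPM at E11.5 and at 113, 120.5 and 112 CPM at E15.5, with group means of 109.9 and 127.0 CPM at the stages between. XX lay above XY without overlap at all 4 stages. At the earliest stage the log2 difference was 1.99 (SE 0.26, adjusted p 5.10e-06 in edgeR), or 1.37 without XX E11.5 replicate 3 and 0.83 with replicate 2 alone. It was 0.67 at E15.5 (SE 0.26, adjusted p 0.0254 in edgeR), a call lost without XX E15.5 replicate 3 (0.0681) or XY E15.5 replicate 1 (0.0719).

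The first XX step of Fech was -1.28 (SE 0.26, adjusted p 0.000856 in edgeR with all 24 libraries). With only the libraries compared it was -1.31 and did not pass (adjusted p 0.0897 in edgeR). The step was -0.67 without XX E11.5 replicate 3 and -0.13 with replicate 2 alone, a library with no spread of its own. In edgeR with all 24 libraries the XX minus XY difference did not pass at E12.5 (adjusted p 0.307) or E13.5 (0.140). Neither did the first and second XY steps (0.201 and 0.640). A fit without the 3 XX E11.5 libraries was chosen after seeing the data. There Fech was higher in XX at E12.5 (0.37, adjusted p 0.00015 in edgeR), E13.5 (0.45, adjusted p 1.60e-05) and E15.5 (0.65, adjusted p 8.79e-08). That fit called 66.4, 71.0 and 73.6% of all genes at these stages. In it Fech also rose in XY, by 0.33 at the first step (adjusted p 0.000707 in edgeR, beside 57.1% of all genes). At the second step it rose by 0.23 (adjusted p 0.0245 in edgeR, beside 25.0%).

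Ppox (chr1:171275990-171281186, minus strand), between Cpox and Fech in the pathway, did not follow them. In XY it was at 62.1, 46.6 and 59.0 CPM at E11.5 and at 31.6, 41.3 and 41.6 CPM at E12.5, a fall of -0.55 (SE 0.15, adjusted p 0.00349 in edgeR) with no overlap. XX E12.5 libraries were at 42.0, 49.1 and 63.5 CPM, all above XY E12.5, higher by 0.43 (SE 0.15, adjusted p 0.0144 in edgeR), a call lost without XX E12.5 replicate 3 (0.0917) or XY E12.5 replicate 1 (0.0582). Exons of Ppox share 791 of their 4515 bases (17.52%) with B4galt3 on the other strand. The B4galt3 mean was 63.4 ± 6.17 CPM before and 75.5 ± 9.14 CPM after that XY step (SD, n = 3).

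Hmox1 (chr8:75093621-75100589, plus strand), the inducible heme oxygenase, had the largest difference toward XY of the 8 genes other than Alas2 from E12.5 on. In XY it was at 47.6, 35.7 and 31.7 CPM at E11.5, at 67.6, 74.2 and 73.7 CPM at E12.5, at 90.6, 68.9 and 79.4 CPM at E13.5 and at 78.3, 76.0 and 80.3 CPM at E15.5. In XX it was at 33.6, 29.7 and 24.1 CPM at E11.5, at 27.0, 35.6 and 37.3 CPM at E12.5, at 28.0, 27.9 and 26.1 CPM at E13.5 and at 25.2, 27.9 and 23.7 CPM at E15.5. From E12.5 on every XY library lay above every XX library, and at E11.5 the groups overlapped. The log2 difference was -1.11 at E12.5 (SE 0.15, adjusted p 1.18e-06), -1.54 at E13.5 (SE 0.15, adjusted p 1.11e-08) and -1.61 at E15.5 (SE 0.15, adjusted p 4.70e-09), all in edgeR. The rise in XY took place from E11.5 to E12.5, by 0.91 (SE 0.14, adjusted p 2.18e-05 in edgeR), and no step in XX passed.

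At E11.5 the difference of Hmox1 was -0.39 (SE 0.15, adjusted p 0.0343 in edgeR). The call was lost when XX E11.5 replicate 2 (0.0524) or replicate 3 (0.148) was left out, when XY E11.5 replicate 1 was (0.243), and in the fit of the 6 E11.5 libraries with replicate number as a block (0.112). In that blocked fit 3 of the 8 genes passed, Alad, Cpox and Fech, against 17.8% of all genes. Hmox1 also answers to cell stress. Of 10 dissociation and stress genes, 1, 5, 7 and 8 passed over the 4 stages, beside 42.0, 62.1, 66.1 and 69.4% of all genes, with 1, 3, 6 and 0 of them higher in XX. Hspa1a, a heat shock gene, averaged 1364 CPM in XX E12.5 and 57.2 CPM in XY E12.5. Atf3, a stress response factor, averaged 11.6 CPM in XX E15.5 and 219.8 CPM in XY E15.5. The part of stress in the Hmox1 difference was not tested.

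**Figure D4:**
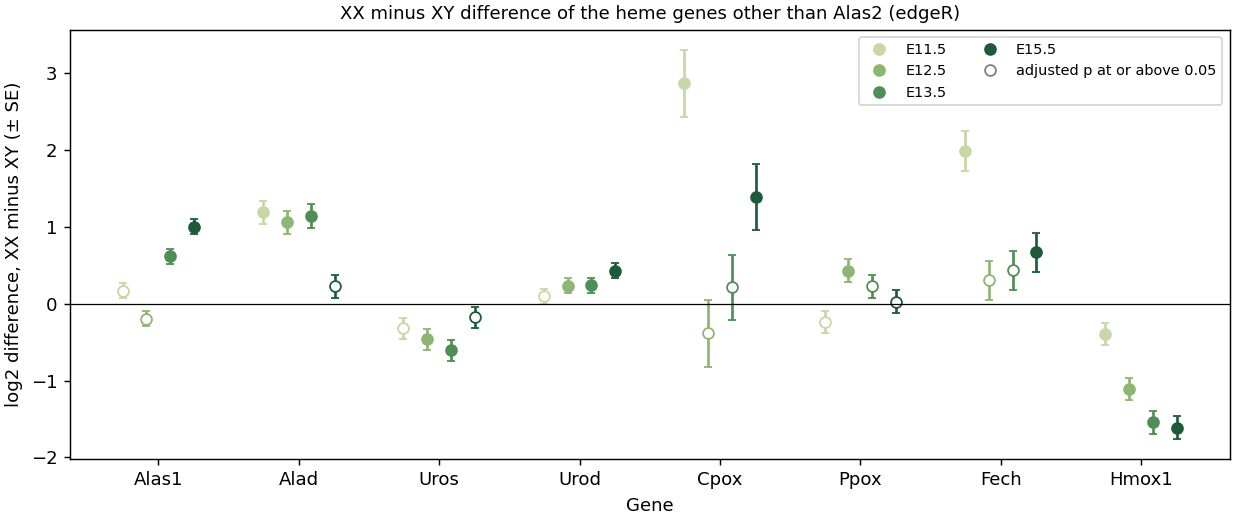
Log2 difference, XX minus XY, of the 8 members other than Alas2 at the 4 stages, with darker symbols for later stages, bars of 1 SE from edgeR and open symbols where the adjusted p was at or above the threshold. Hmox1 goes from -0.39 to -1.61, Alas1 reaches 1.004 at E15.5 and Alad stays between 1.06 and 1.19 until E13.5.

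Over the stages, 4 of the 8 genes changed in XX (Alas1, Alad, Cpox and Fech) against 74.0% of all genes, and 5 changed in XY (Alas1, Alad, Uros, Ppox and Hmox1) against 70.3% of all genes, by F tests in edgeR. The change of Uros in XY (adjusted p 0.0294 in edgeR) was lost without any 1 of 11 of the 12 XY libraries, with adjusted p from 0.0554 to 0.176. At the first XX step 2 genes passed beside 34.0% of all genes, both falls (17.3% of all genes fell and 16.7% rose). At the second XX step 2 passed beside 31.7%, both rises (14.2% rose and 17.4% fell), and at the last 1 passed beside 25.6%, a fall (12.8%). At the first XY step 3 genes passed beside 51.9% of all genes, 2 rises (27.1%) and 1 fall (24.8%). At the second XY step 1 gene rose (8.02%) and 1 fell (8.62%), beside 16.6% in all, and at the last 1 rose (as did 1863 of the 16190 genes) and 1 fell (9.79%), beside 21.3% in all. The gap between XX and XY depended on stage for 6 genes, all but Uros and Urod, against 70.1% of all genes. Without the 3 XX E11.5 libraries, from E12.5 on, it passed for Alas1, Alad, Cpox and Hmox1 and no longer for Fech (adjusted p 0.0583 in edgeR) and Ppox (0.128).

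The rest of the pathway was read from a list of 20 genes, which holds mitochondrial carriers and iron-sulfur cluster genes that supply the pathway. Over the 4 stages 12, 13, 12 and 14 of the 20 passed between XX and XY, beside 42.0, 62.1, 66.1 and 69.4% of all genes. Of these, 9, 4, 5 and 6 were higher in XX, beside 21.4, 30.5, 32.8 and 34.9% of all genes. The list's median log2 difference was 0.16, -0.14, 0.03 and -0.02, beside the medians of all genes given above. In the blocked fit of the 6 E11.5 libraries 4 of the 20 passed, beside 17.8% of all genes.

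Several genes of this list were high in XY cells together with Alas2. Abcb10, a transporter that supports heme formation in red cell precursors, was at 50.4 ± 6.76, 178 ± 9.40, 180 ± 7.20 and 227 ± 1.92 CPM in XY from E11.5 to E15.5 (SD, n = 3). In XX it was at 52.5 ± 31.6, 27.9 ± 3.56, 16.9 ± 3.69 and 18.8 ± 3.48 CPM. The difference was -3.61 at E15.5 (SE 0.31, adjusted p 2.35e-09 in edgeR). Fam210b, a mitochondrial protein also linked to red cell heme, rose in XY from 7.68 ± 1.87 to 47.5 ± 3.19 CPM between E11.5 and E12.5 (log2 change 2.63, SE 0.29, adjusted p 2.62e-07 in edgeR) and to 110.0 ± 6.15 CPM at E13.5 (1.21, SE 0.27, adjusted p 0.00423 in edgeR). Fdxr, the ferredoxin reductase that feeds iron-sulfur and steroid enzymes, went from 58.0 ± 11.7 to 243 ± 10.5 CPM over the first XY step (2.07, SE 0.15, adjusted p 4.67e-10 in edgeR).

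Other parts of the list stayed with XX. Slc25a38, the glycine carrier that feeds the synthase, was higher in XX at all 4 stages, by 0.43, 0.54, 0.51 and 1.04 (SE 0.09 to 0.10, adjusted p at most 0.00106 in edgeR). In XY it was at 35.9 ± 2.85 CPM at E11.5 and at 24.8 ± 1.34 CPM at E15.5, so it did not rise with Alas2. Slc25a37, the mitochondrial iron importer of red cell precursors, was at 66.7, 8.53 and 137 CPM in the XX E11.5 libraries, the order of the erythroid markers, and at 3.58 ± 0.06 CPM in XY E15.5.

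Of 12 tested genes for heme breakdown, transport and sensing, 5, 9, 5 and 7 passed between XX and XY from E11.5 to E15.5, beside 42.0, 62.1, 66.1 and 69.4% of all genes, with 3, 6, 4 and 4 of them higher in XX. The median was -0.03, 0.53, -0.02 and -0.15, and 2 passed in the blocked E11.5 fit, beside 17.8% of all genes. Flvcr2, a heme and choline transporter, went with Hmox1 and Alas2 in XY, from 13.2 ± 1.26 CPM at E11.5 to 52.0 ± 7.09, 123 ± 9.92 and 118 ± 2.87 CPM (SD, n = 3), and was 5.31 to 8.96 CPM on average in XX. Hmox2, the constitutive oxygenase, took the other side. It was at 54.7 ± 1.19 CPM in XY E12.5 against 84.3 ± 2.45 CPM in XX E12.5, and its difference reached 1.07 at E15.5 (SE 0.10, adjusted p 3.66e-09 in edgeR). Blvrb, a biliverdin reductase, was likewise higher in XX, by 2.29 at E15.5 (SE 0.18, adjusted p 3.92e-10 in edgeR).

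Iron genes differed in both directions. Of 11 tested, 7, 6, 7 and 8 passed from E11.5 to E15.5, beside 42.0, 62.1, 66.1 and 69.4% of all genes, and 4, 1, 2 and 3 of them were higher in XX. The median was 0.20, -0.28, -0.26 and -0.25, and 4 passed in the blocked E11.5 fit, beside 17.8%. At E15.5 the count was 5 to 7 when 1 library was left out, lowest without XX E15.5 replicate 1. Steap3, the ferrireductase of the transferrin cycle, rose in XY from 15.49 ± 4.30 to 116 ± 4.95 CPM at the first step (log2 change 2.90, SE 0.15, adjusted p 3.12e-12 in edgeR). Tfrc, the transferrin receptor, was lower in XX at E12.5 (-0.59, SE 0.20, adjusted p 0.0169 in edgeR) and higher in XX at E13.5 (0.87, SE 0.21, adjusted p 0.000966) and E15.5 (0.64, SE 0.20, adjusted p 0.0086).

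Transcription factors of red cell precursors gave a mixed picture beside Alas2. Of 8 such genes, 7, 6, 6 and 7 passed from E11.5 to E15.5, beside 42.0, 62.1, 66.1 and 69.4% of all genes, with 7, 4, 3 and 5 of them higher in XX. Gata1 was at 0.298, 0.120, 1.04 and 2.06 CPM on average in XY from E11.5 to E15.5 and at 16.1, 7.22, 5.41 and 12.46 CPM in XX. Klf1 was at 11.1, 10.3, 4.12 and 1.95 CPM in XY, so it was lowest where Alas2 was highest. Tal1 was at 0.258 CPM or less in every XY library. Nfe2 was the most abundant of these genes in XY from E12.5 on, at 11.2 ± 2.15, 43.9 ± 9.71, 66.9 ± 4.96 and 39.7 ± 3.60 CPM (SD, n = 3), and it rose at the first step by 1.97 (SE 0.27, adjusted p 3.44e-06 in edgeR).

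Genes with a course like that of Alas2 were ranked by the Pearson correlation of log2(CPM + 1) over the 24 libraries among 11166 genes with at least 10 CPM in some group. Among the 10 highest were Arhgap9 (r = 0.91), Sptb (0.91), Plekhg3 (0.90), Fam210b (0.89), Ank1 (0.89), Xk (0.86), St3gal2 (0.86), Szrd1 (0.86) and Heyl (0.85), and 4 genes reached 0.9. The libraries share groups and depth, so these are descriptions and no p is given. Sptb and Ank1 encode a spectrin and an ankyrin under the red cell membrane, and Xk a protein of that membrane. Sptb was at 57.2 ± 2.99 CPM and Ank1 at 24.04 ± 1.43 CPM in XY E15.5 (SD, n = 3), against 1.04 ± 0.15 and 0.529 ± 0.133 CPM in XX E15.5. In XX E11.5, Sptb was at 32.9, 5.73 and 81.4 CPM, again the order of the erythroid markers.

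The ranking depended on the XX E11.5 libraries. Over the 12 XY libraries alone, 1007 genes reached 0.9, led by Etd, and none of the first 10 genes over all libraries was among the first 10. Without the 3 XX E11.5 libraries 362 genes reached 0.9, led by Osbpl11, again with none of the 10 shared. For Hmox1 the 5 highest genes included Rtn4rl1, Amh, Sfrp4 and Sh3gl2 (r from 0.97 to 0.98), and 600 genes reached 0.9, so its course is that of many genes of XY cells.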

How the data were processed

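RNA of sorted cells was sequenced after polyA selection and cDNA amplification from low input, per the labels' protocols. The deposited tables hold estimated counts per gene (17.5% not whole) and TPM, both made by the authors. The submitters' processing notes name mm10, and the aligner, the counting tool and its use of strand are not given in the sources used here. Libraries were placed in groups by their titles. Estimated counts were rounded and tested in edgeR 4.0.16 (R 4.3.3) by quasi-likelihood on 8 group means over all 24 libraries, with TMM scaling and the filterByExpr filter, which left 16190 of 32040 genes. All 9 members passed that filter. P-values were adjusted by Benjamini-Hochberg over those genes, with calls at an adjusted p under 0.05. The files turned out to hold estimated counts where whole counts had been assumed, hence the rounding. CPM use TMM-scaled totals. TPM sums were 938740 to 961696 per library and served to compare genes.

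The members and gene lists were chosen with earlier results of these data known. Every member could be named, within a list the 4 genes with the largest called difference and at least 10 CPM in the higher group, with Slc25a38, Slc25a37, Tfrc, Gata1 and Klf1 in any case, and the genes most like Alas2 (10) and Hmox1 (5). Genes whose exons overlap a member, and a few markers with no count, were added after values were seen. A few genes of the lists are not reported here. Gene positions are from GENCODE M21 and promoters from RefSeq. Same-numbered XX and XY libraries deviated together at E11.5 (r = 0.20, 0.14 and 0.35 over 11341 genes, each of the 6 libraries correlating best with its own number). At E12.5 each library also correlated best with its own number, but 1 pair did not exceed 0.1 (r = 0.19, 0.048 and 0.15). In none of the other 9 comparisons, E12.5 included, did all 3 pairs exceed 0.1, so a blocked fit is given for E11.5. On simulated counts for XX minus XY at E15.5 (15739 genes), 65% of log2 changes of 1 and 94% of log2 changes of 2 were recovered, and 5.36% of calls were false. Alternatives were DESeq2 1.42.0 and its size factors, limma 3.58.1 on log2(TPM + 1) and log2(TPM + 0.1), other filters, fits of only the libraries compared, the replicate number as a block and leaving out each library.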

Additional observations from a re-analysis of the deposited data

Results flagged for a closer look

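The XX minus XY difference changed over the 4 stages, by the F test of that change in edgeR, for 6 of the 8 genes tested, beside 70.1% of all genes. The adjusted p was 1.45e-06 for Alas1, whose difference went from 0.17 at E11.5 to 1.004 at E15.5. It was 8.81e-05 for Hmox1, whose difference went from -0.39 to -1.61, and 0.00124 for Alad, whose difference was 1.14 at E13.5 and 0.23 at E15.5. For Cpox it was 0.000449 and for Fech 0.00131, where the E11.5 values rest on XX libraries with 4446 to 34715 CPM of erythroid markers. For Ppox it was 0.0383, and the test no longer passed when XX E12.5 replicate 3 (0.0651), XY E12.5 replicate 1 (0.0643) or either of XY E11.5 replicates 1 (0.0582) and 3 (0.0679) was left out, nor with the replicate number as a block (0.0517).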

How the results depend on the processing

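Of 239 recomputed counts of members called, 229 stayed within 1.5 times the value given. The share of all genes called was recomputed as often, and 34 of those shares moved by more than 1.5 times. Where no share stands beside a count below, a change of the members cannot be told from a change of the whole fit. The 789 recomputed log2 differences cover Alas2 and those differences of members that passed with all libraries or without the 3 XX E11.5 libraries. None of these changed sign. Some small differences that passed in neither fit did. Urod at the second XX step, for example, was at 0.011, and at -0.018 without the 3 XX E11.5 libraries. With only the libraries compared, the count of members went from 2 to 1 at the XX step from E11.5 to E12.5, from 2 to 4 at the next XX step, from 1 to 2 at the last XX step and from 2 to 4 at the last XY step. With XX E11.5 as replicate 2 alone, chosen after seeing the data and assumed to vary like the other groups, it was 1 at the first XX step. Without the 3 XX E11.5 libraries, also chosen after seeing the data, it was 4 at the second and 2 at the last XX step, beside 40.7% and 35.2% of all genes in that fit (31.7% and 25.6% with all libraries). Without a filter on low counts it was 1 at the second XX step. Leaving out 1 library gave 1 to 3 members at that step, beside 22.9 to 27.6% of all genes. For XX minus XY it gave 3 to 5, 4 to 5, 4 to 5 and 4 to 5 members from E11.5 to E15.5. The shares of all genes beside these were 34.9 to 43.3, 54.4 to 56.6, 59.7 to 61.6 and 63.3 to 65.8%. With the replicate number as a block over all 24 libraries the counts for XX minus XY were 4, 4, 5 and 5, the calls lost by it were those of Urod at E12.5 and of Ppox over the stages, and Cpox passed at the second XX step (1.04, adjusted p 0.0476 in edgeR). The difference of Alas2 at the first stage, 4.84, is limited by the spread of 3 libraries, and Rhag in XY by depth. Without the 3 XX E11.5 libraries, SEs of Cpox and Fech shrank while differences moved little. Fech, XX minus XY at E12.5, went from 0.31 (SE 0.26) to 0.37 (SE 0.07). Cpox at the second XX step went from 1.01 (SE 0.43) to 0.98 (SE 0.21). The causes of the other changes were not tested.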

Other observations

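Proteins that carry heme were read from a list of 19 genes, of which 18 were tested. Between XX and XY 12, 15, 14 and 13 passed from E11.5 to E15.5 (edgeR), beside 42.0, 62.1, 66.1 and 69.4% of all genes, with 6, 9, 9 and 6 of them higher in XX. Cyp26b1, the retinoic acid-degrading P450, averaged 0.243 CPM in XX E15.5 and 98.4 CPM in XY E15.5 (a difference of -8.73 in log2, SE 0.56, adjusted p 3e-11 in edgeR). Cyp11a1, the first enzyme of steroid synthesis, averaged 0.673 CPM in XX E15.5 and 19.4 CPM in XY E15.5 (-5.03, SE 0.49, adjusted p 1.63e-08 in edgeR). Cyp1b1, another P450, averaged 10.1 CPM in XX E15.5 and 1.26 CPM in XY E15.5 (3.07, SE 0.48, adjusted p 1.12e-05 in edgeR). Cygb, cytoglobin, was at 92.4 CPM in XX E12.5 and 8.07 CPM in XY E12.5, and Cycs, cytochrome c, was at 56.6 CPM in XX E12.5 and 236 CPM in XY E12.5.

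Hmox1 is also a target of the stress factor NRF2, so 9 other genes of that response were read beside it. Of these 4, 7, 4 and 4 passed from E11.5 to E15.5 (edgeR), beside 42.0, 62.1, 66.1 and 69.4% of all genes. Among those that passed, 4, 6, 2 and 3 were higher in XX. The part of NRF2 in the Hmox1 difference was not tested. Srxn1, the sulfiredoxin, was at 10.9 CPM in XX E12.5 and 2.06 CPM in XY E12.5 (log2 difference 2.39, adjusted p 4.39e-09 in edgeR). Gclm, which makes glutathione, differed by 1.40, 1.43, -0.72 and 1.26 over the 4 stages.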
